A study of Mus musculus with 7 samples.

Results

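The circadian clock genes described here are the 10 genes Arntl, Clock, Npas2, Per1, Per2, Per3, Cry1, Cry2, Nr1d1 and Dbp, chosen by symbol. They were chosen with earlier results of these data known. All 10 were found among the 35013 gene symbols of the count table. The libraries come from sorted pancreatic β-cells of 3 groups of mice, 2 KO_db/db, 2 db/db and 3 db/+, with 1 poly-A library per mouse. KO_db/db mice lack a working leptin receptor (Lepr db/db) and carry the rat insulin promoter transgene RIP-Cre herr with both Aldh1a3 alleles floxed, so that Aldh1a3 is deleted in β-cells. The db/db controls carry the same transgene with 1 floxed Aldh1a3 allele on Lepr db/db, and the lean db/+ controls carry it with 1 floxed Aldh1a3 allele on Lepr db/+, so the controls are heterozygous for the deletion and no group is free of Cre. All 3 groups also carry a tdTomato reporter, and the Lepr db allele came from the strain B6.BKS(D)-Lepr db/J. The methods describe males and females aged 16 to 20 weeks on a 12 h light-dark cycle with lights on at 7 a.m., and a fast of 16 h before islets were isolated. The hour at which each pancreas was collected is not given in the sources used here. Clock transcripts change with that hour, so a difference between groups and a difference in hour cannot be told apart in any comparison that follows.

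In the clock, CLOCK or its paralog NPAS2 pairs with BMAL1, the product of Arntl, and the pair binds E-boxes to switch on the Per and Cry genes, Nr1d1 and Dbp. PER and CRY proteins return to the nucleus and repress that pair. REV-ERBα, the product of Nr1d1, represses Arntl, Npas2 and Clock through ROR elements, and DBP activates genes with D-boxes, so that the levels of Arntl and of Nr1d1 or Dbp peak at opposite times of day in most tissues. In the β-cell the clock is known for its control of insulin secretion, and mice whose β-cells lack Arntl become glucose intolerant.

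These motifs are shown because they name the arms by which the results are ordered. RefSeq promoter windows on GRCm38.p6, from 250 bases before to 50 after a start site, were found for 9 of the 10 genes (all but Per2) in 13 entries. Capitals mark the E-box CACGTG, the D-box TTATGTAA or TTACGTAA, the ROR element TAGGTCA and the cAMP response element TGACGTCA, each searched on both strands, and no match overlapped another. The lines give chr11:69098738-69098833 (+), chr10:85185064-85185159 (-), chr4:151044771-151044915 (-) and chr7:113207496-113207560 (+) in that order.
Per1: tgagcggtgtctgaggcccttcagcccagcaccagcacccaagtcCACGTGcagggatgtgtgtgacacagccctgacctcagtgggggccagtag
Cry1: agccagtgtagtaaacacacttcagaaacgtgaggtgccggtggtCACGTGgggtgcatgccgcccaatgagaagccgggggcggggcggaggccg
Per3: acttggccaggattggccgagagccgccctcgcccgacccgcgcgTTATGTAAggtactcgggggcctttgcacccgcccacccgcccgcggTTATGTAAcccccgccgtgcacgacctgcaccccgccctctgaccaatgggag
Arntl: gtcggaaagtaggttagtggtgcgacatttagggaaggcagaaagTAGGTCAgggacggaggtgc

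The E-box began 166 bases before the start site in Per1 and 60 before it in Cry1, and E-boxes were present in 7.15% of all 32851 promoter windows. A further window of Per1, from base 69099902, held none. The windows of Cry2, Nr1d1 and Dbp also held no E-box, and 2 of the members had an E-box in an entry. The D-boxes of Per3 began 205 and 158 bases before the start, a motif held by 1.06% of windows. The ROR element of Arntl began 30 bases after the start and is held by 2.61% of windows. Another window of Arntl, from base 113207215, held none. The cAMP response element, present in 1.79% of windows, was in none of the 13 entries, and no match says only that these letters are not in this window.

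Total counts per library ran from 27496645 to 35852785, and 3 counts, taken as the detection floor, stood for between 0.0721 and 0.123 CPM (the share of a library's counts per 1e6, scaled by the TMM method of edgeR over the 7 libraries). These floors cover counting error only. Aldh1a3 had 4.93 and 7.90 CPM in KO_db/db, 99.3 and 195 CPM in db/db and at most 0.584 CPM in db/+. All 8 β-cell markers checked, among them Ins1, Ins2 and Pdx1, were detected in every group, with a summed level of 225291 to 294695 CPM in KO_db/db, 202619 to 226836 in db/db and 394168 to 438153 in db/+. The KO_db/db libraries also held acinar markers: 23 genes took 9.70% of the counts of mouse 1 and 1.05% of those of mouse 2, against at most 0.0361% in any library of the other groups. The summed markers of α-cells reached at most 2537 CPM, those of δ-cells 2332, of PP cells 903, of ductal cells 419.7, of endothelial cells 45.4, of stellate cells 2.45 and of macrophages 2.29 CPM in any library. Their part in the results was not tested. Whether the mice of a group came from separate litters or days is not given, so p-values measure the spread between these mice. In sorted bulk samples, fewer cells of a type and less RNA per cell cannot be told apart.

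Scaled by exon length on the GENCODE annotation of GRCm38, the highest of the 10 genes in db/+ was Cry2, with a mean of 14.1 CPM per kilobase. Dbp followed at 11.8 and Nr1d1 at 10.2 CPM per kilobase. In KO_db/db the order was led by Nr1d1 at 65.1 CPM per kilobase and Cry2 at 55.5, then Per1 at 18.1 and Dbp at 13.9. Npas2 and Per3 were the lowest of the 10 in every group by this scale, at or under 0.934 CPM per kilobase. Per1, at 2.58 CPM per kilobase in db/+, stood below Clock at 5.51 and Cry1 at 3.32 there and above both in KO_db/db.

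Clock (chromosome 5, 76209868 to 76304792), the histone acetyltransferase partner of BMAL1, had 61.0 and 66.4 CPM in KO_db/db, 77.3 and 58.9 CPM in db/db, and 74.4, 74.8 and 77.9 CPM in db/+. Both KO_db/db libraries lay below the db/+ libraries, while 1 db/db library lay below the db/+ libraries and the other within their range. Npas2 (chromosome 1, 39193731 to 39363236), which can replace CLOCK in the pair, had 3.75 and 5.20 CPM in KO_db/db, 1.90 and 0.721 CPM in db/db, and 0.983, 0.582 and 3.37 CPM in db/+. Arntl (chromosome 7, 113207465 to 113314126) had 13.9 and 13.0 CPM in KO_db/db, 6.19 and 8.49 CPM in db/db, and 4.47, 7.67 and 10.3 CPM in db/+. For Npas2 and Arntl the KO_db/db libraries were the highest of the 7, and the db/db and db/+ libraries overlapped.

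The Per genes encode the repressors of the negative arm. Per1 (chromosome 11, 69095217 to 69109960), a repressor that also answers quickly to cAMP and glucocorticoids, had 124 and 79.7 CPM in KO_db/db, 31.5 and 70.8 CPM in db/db, and 15.2, 12.1 and 16.4 CPM in db/+. The 3 groups did not overlap, with db/+ lowest and KO_db/db highest. Over all genes tested, 33.3% lay higher and 29.9% lower without overlap in db/db against db/+. These shares were 31.7% and 32.3% in KO_db/db against db/+, and 27.3% and 30.2% in KO_db/db against db/db. Each share is for a pair of groups, and none was computed for all 3 groups apart at once. Per2 (chromosome 1, 91415982 to 91459324) had 24.6 and 20.3 CPM in KO_db/db, 7.70 and 25.5 CPM in db/db, and 6.23, 5.60 and 5.22 CPM in db/+. The db/db mice stood apart from each other here, mouse 1 near the lean libraries and mouse 2 at the level of KO_db/db. Per3 (chromosome 4, 151003652 to 151044665) had 7.13 and 3.82 CPM in KO_db/db, 3.23 and 10.2 CPM in db/db, and 3.15, 3.89 and 1.55 CPM in db/+, and its groups overlapped.

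Cry1 (chromosome 10, 85131700 to 85185064) and Cry2 (chromosome 2, 92403646 to 92434043) encode the repressors that bind CLOCK and BMAL1 directly. Cry1 had 14.6 CPM in both KO_db/db libraries, 17.0 and 19.6 CPM in db/db, and 12.5, 11.6 and 9.21 CPM in db/+. Cry2 had 387 and 316 CPM in KO_db/db, 113 and 281 CPM in db/db, and 72.3, 108 and 86.1 CPM in db/+. Neither gene overlapped between any of the 3 groups, but the order differed: db/db was highest for Cry1 and KO_db/db for Cry2. The shares of all genes given for Per1 cover pairs of groups and not all 3 at once. For Cry2 the gap between db/db and db/+ was narrow, from 113 CPM in db/db mouse 1 to 108 CPM in db/+ mouse 2.

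Among the targets, Nr1d1 (chromosome 11, 98767932 to 98775333) had 210 and 190 CPM in KO_db/db, 20.1 and 80.1 CPM in db/db, and 32.3, 29.5 and 32.8 CPM in db/+. The lean mice lay within 1.11-fold of each other, KO_db/db was far above them, and the db/db mice fell on either side of them. Dbp (chromosome 7, 45705088 to 45710203) had 30.3 and 52.9 CPM in KO_db/db, 9.39 and 35.7 CPM in db/db, and 35.7, 46.7 and 23.6 CPM in db/+. Its groups overlapped, and the single low library was that of db/db mouse 1. Exons of Nr1d1 overlap those of Thra on the opposite strand over 263 bases (8.55% of its exon length) and those of Dbp overlap Sphk2 over 539 bases (18.0%), and the use of strand in counting is not given in the sources used here. Thra, the thyroid hormone receptor gene, had between 64.8 and 71.3 CPM in KO_db/db, 51.5 and 56.0 in db/db and 40.6 to 44.8 in db/+, a narrower range than that of Nr1d1.

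**Figure D1:**
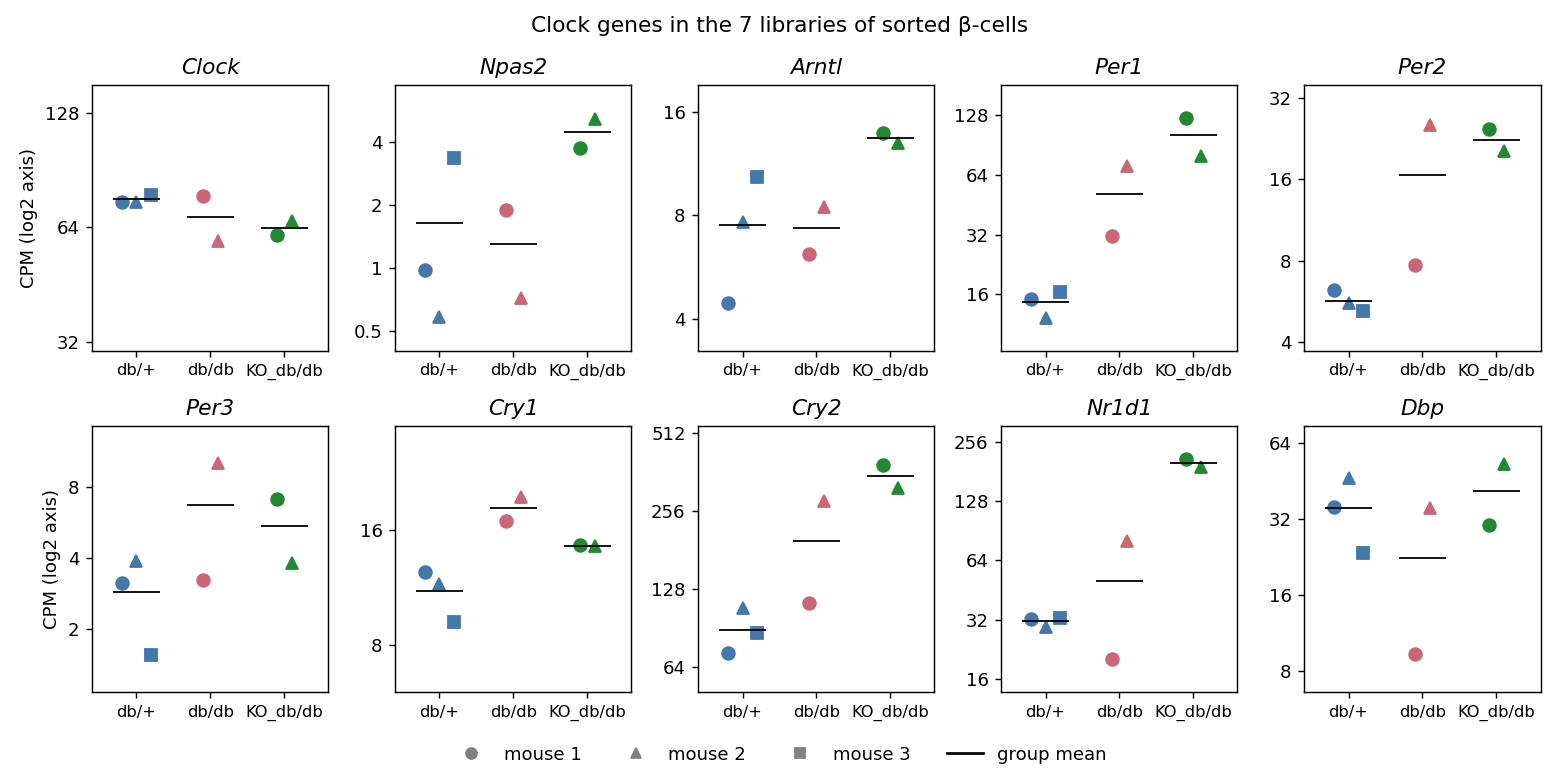
Level of each clock gene in CPM on a log2 axis (the range differs between panels) in the 7 libraries, by group, with a symbol for each mouse and a line at the group mean. Per1, Cry1 and Cry2 do not overlap between groups. For a pair of groups, 27.3% to 33.3% of all genes did not overlap in each direction, and the share with all 3 groups apart was not computed. Nr1d1 is at 190 to 210 CPM in KO_db/db, and the db/db mice lie far apart for Per2, Per3, Cry2, Nr1d1 and Dbp.

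The comparison of KO_db/db with db/+ asked how far diabetic β-cells with the Aldh1a3 deletion differ from lean ones. Some Aldh1a3 transcript remained in KO_db/db, at 4.93 and 7.90 CPM against at most 0.584 CPM in db/+. Per1, Per2, Cry2 and Nr1d1 were upregulated in KO_db/db β-cells, Per1 by 7.04-fold, Nr1d1 by 6.39-fold, Per2 by 3.97-fold and Cry2 by 3.96-fold, while Dbp and the genes of the positive arm did not pass the test. These 4 of 10 genes had an adjusted p under 0.05 and 0 were lower, beside 20.5% of all 13228 genes tested that were called higher and 17.9% called lower. The log2 fold change of Nr1d1 was 2.67 (standard error 0.10, adjusted p = 0.000235 by the quasi-likelihood test of edgeR). It was 2.82 for Per1 (standard error 0.22, adjusted p = 0.000693, edgeR), 1.99 for Per2 (standard error 0.15, adjusted p = 0.000693, edgeR) and 1.99 for Cry2 (standard error 0.19, adjusted p = 0.000951, edgeR). All 4 genes were called in each of 11 alternative fits, and with 1 or the other KO_db/db mouse left out Nr1d1 was at 2.59 and 2.74.

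The remaining 6 genes missed the threshold. Arntl passed it in 4 of the 11 alternatives and Npas2 in 2. Among these, without db/+ mouse 3, Arntl (1.15, adjusted p = 0.0259, edgeR) and Npas2 (2.53, adjusted p = 0.00858, edgeR) passed it. With all libraries, Arntl had a log2 fold change of 0.84 (standard error 0.32, adjusted p = 0.0775, edgeR), Npas2 of 1.44 (standard error 0.67, adjusted p = 0.134, edgeR) and Clock of -0.24 (standard error 0.09, adjusted p = 0.0637, edgeR). Arntl, the BMAL1 gene, and Nr1d1, whose product represses it, were at their highest levels in the same 2 libraries. Cry1 was at 0.41 (standard error 0.16, adjusted p = 0.0859, edgeR) and Per3 at 0.94 (standard error 0.44, adjusted p = 0.135, edgeR). Dbp was at 0.24 (standard error 0.32, adjusted p = 0.574, edgeR), and between -0.22 and 0.58 across the alternatives.

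Counted by library rather than by the fit, 7 of the 10 genes lay above all 3 db/+ libraries in each KO_db/db library, and 1, Clock, lay below them. Over all genes tested, 31.7% lay higher and 32.3% lower without overlap. The median log2 fold change of the 10 genes was 1.19, and that of all genes tested was -0.0034. The acinar markers, summed, were at 108591 CPM in KO_db/db mouse 1 and 9148 in mouse 2. All 4 called genes were also higher in mouse 1. In the same libraries Nr1d1 was at 210 and 190 CPM, Per2 at 24.6 and 20.3, Per1 at 124 and 79.7 and Cry2 at 387 and 316. With the rows of the acinar markers left out, the same number of clock genes, 4, passed the threshold. That step keeps any clock transcripts of acinar cells in the counts, so it cannot show their part, which was not tested.

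**Figure D2:**
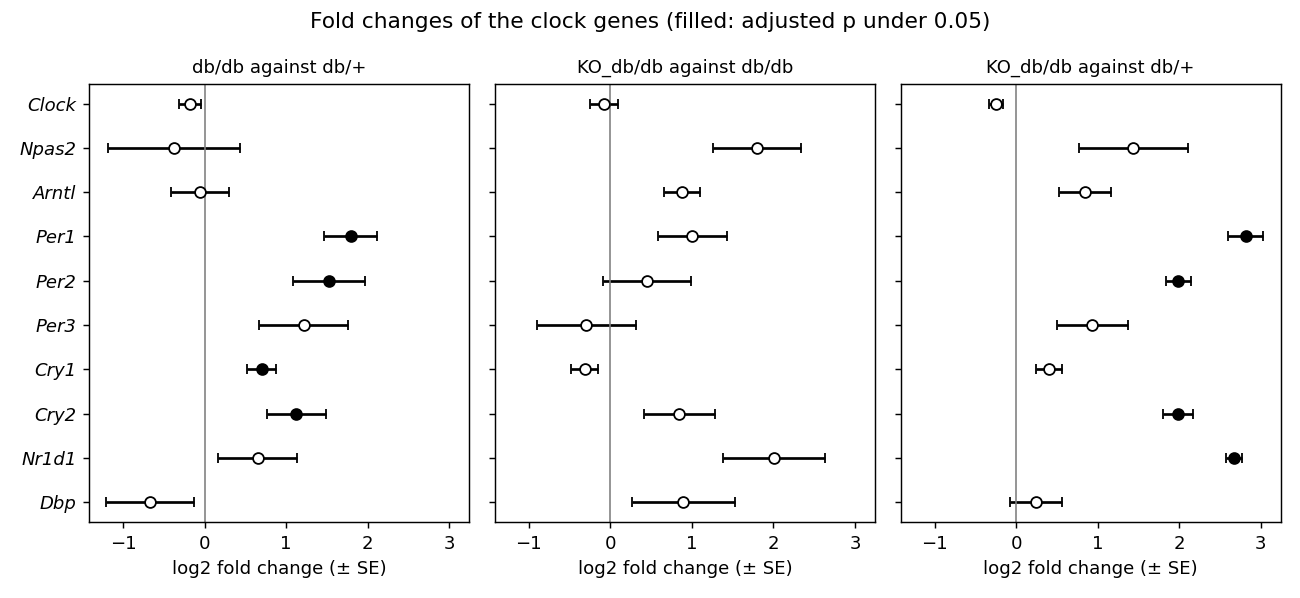
Log2 fold change of each clock gene with its standard error in the 3 comparisons, filled where the adjusted p was under 0.05. In KO_db/db against db/+ Per1, Per2, Cry2 and Nr1d1 lie at 1.99 to 2.82, and in KO_db/db against db/db no symbol is filled.

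The comparison of db/db with db/+ asked what leptin receptor deficiency and diabetes go with in β-cells that keep Aldh1a3. Per1, Per2, Cry1 and Cry2, which encode repressors of the loop, were upregulated in db/db, by 3.46-fold, 2.88-fold, 1.62-fold and 2.18-fold, and 0 of the 10 genes were called lower. The 4 calls stand beside 19.9% of 13406 genes called higher and 18.0% called lower. The log2 fold change of Per1 was 1.79 (standard error 0.33, adjusted p = 0.00685, edgeR), that of Per2 1.52 (standard error 0.45, adjusted p = 0.0353, edgeR), that of Cry1 0.70 (standard error 0.17, adjusted p = 0.0204, edgeR) and that of Cry2 1.12 (standard error 0.36, adjusted p = 0.0482, edgeR). The median over the 10 genes was 0.67, against 0.0064 over all genes tested. Nr1d1 had a log2 fold change of 0.65 (standard error 0.49, adjusted p = 0.330, edgeR), Per3 of 1.21 (standard error 0.55, adjusted p = 0.123, edgeR) and Dbp of -0.67 (standard error 0.54, adjusted p = 0.364, edgeR). Clock was at -0.18, Arntl at -0.06 and Npas2 at -0.38, none of them past the threshold.

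The db/db mice gave different answers. With db/db mouse 2 as the only db/db library, 7 of the 10 genes passed: Per1, Per2, Per3, Cry1, Cry2 and Nr1d1 were higher than in db/+ and Clock was lower, beside 16.3% of all genes called higher and 15.1% lower. With db/db mouse 1 alone, 3 passed: Per1 was higher, and Nr1d1 and Dbp were lower, beside 15.0% called higher and 14.3% lower. Nr1d1 rose by 1.32 on the log2 scale with mouse 2 alone (standard error 0.11, adjusted p = 0.00169, edgeR) and fell by 0.68 with mouse 1 alone (standard error 0.14, adjusted p = 0.0157, edgeR). Dbp fell by 1.94 with mouse 1 alone (standard error 0.39, adjusted p = 0.0162, edgeR) and was at -0.01 with mouse 2 alone (adjusted p = 0.984, edgeR). In these fits the lone db/db library is assumed to vary like the db/+ libraries. Of the 10 genes, Per1 alone was called with both mice and with each mouse by itself, at 1.08 for mouse 1 and 2.26 for mouse 2.

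Leaving out lean mice also moved the count: 2 genes passed without db/+ mouse 1, 1 without mouse 2 and 2 without mouse 3. Over all genes the calls fell as well, from 5069 with every library to 3331, 3368 and 4330 in these fits. Without a lean mouse Per2 had values of 1.47 to 1.59 (edgeR, adjusted p = 0.0802 to 0.0942) and Cry2 of 0.99 to 1.29 (edgeR, adjusted p = 0.0709 to 0.133). Cry1 lost its call without db/+ mouse 2, at 0.73 (edgeR, adjusted p = 0.0554). Per1 was called in each of the 11 alternatives, Cry1 in 8, and Per2 and Cry2 in 6.

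**Figure D3:**
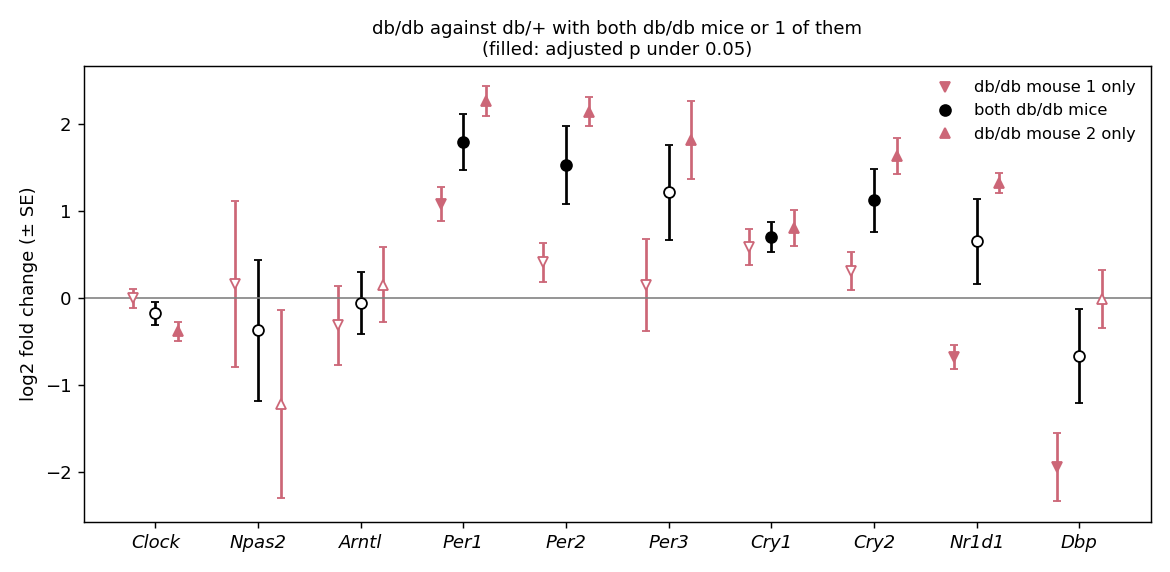
Log2 fold change (± SE) of each clock gene in db/db against the 3 db/+ mice, with both db/db mice or with 1 of them, filled where the adjusted p was under 0.05. Nr1d1 lies at -0.68 with mouse 1 alone and at 1.32 with mouse 2 alone, while Per1 lies above 0 in each.

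The spread inside the groups was then set out for its own sake, a description added after the values had been seen and made without a test, since it sets 1 library against 1. Between the db/db mice, 6 of the 10 genes were at least 2-fold higher in mouse 2 and 1 was at least 2-fold lower. Over all 13789 genes that passed the filter across the 3 groups, 6.66% were at least 2-fold higher and 4.73% at least 2-fold lower. The genes higher in mouse 2 were Nr1d1 by 3.97-fold, Dbp by 3.80-fold, Per2 by 3.31-fold, Per3 by 3.16-fold, Cry2 by 2.49-fold and Per1 by 2.25-fold. Each is a repressor or target of the CLOCK and BMAL1 pair, but not all such genes were among them. Npas2 was the gene that was lower, at 0.380 of the level of mouse 1, with 64 counts in mouse 1 and 30 in mouse 2, and Clock was at 0.762. Arntl and the repressor gene Cry1 differed by 1.37-fold and 1.16-fold.

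Other genes of the loop did not all move together between the same mice. Ciart, a repressor of the CLOCK and BMAL1 pair, was 3.78-fold higher in mouse 2, and Tef and Hlf, which encode the relatives of DBP, were 2.10-fold and 1.97-fold higher. Arntl2 was 1.85-fold and Nr1d2 1.58-fold higher, Bhlhe41 and Rora differed by 1.07-fold and 1.05-fold, and Nfil3 and Bhlhe40 were at 0.869 and 0.729 of mouse 1. Between the KO_db/db mice none of the 10 genes differed by 2-fold, beside 4.32% of all genes at least 2-fold higher and 5.98% at least 2-fold lower in mouse 2. The largest differences there were those of Per3, at 0.536 of mouse 1, and Dbp, 1.74-fold higher. Among the 3 lean mice, Npas2, Per3 and Arntl differed by at least 2-fold from lowest to highest, beside 16.5% of all genes, with 5.79-fold for Npas2, 2.52-fold for Per3 and 2.32-fold for Arntl. Nr1d1, Per2 and Clock differed by 1.11-fold, 1.19-fold and 1.05-fold among them.

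**Figure D4:**
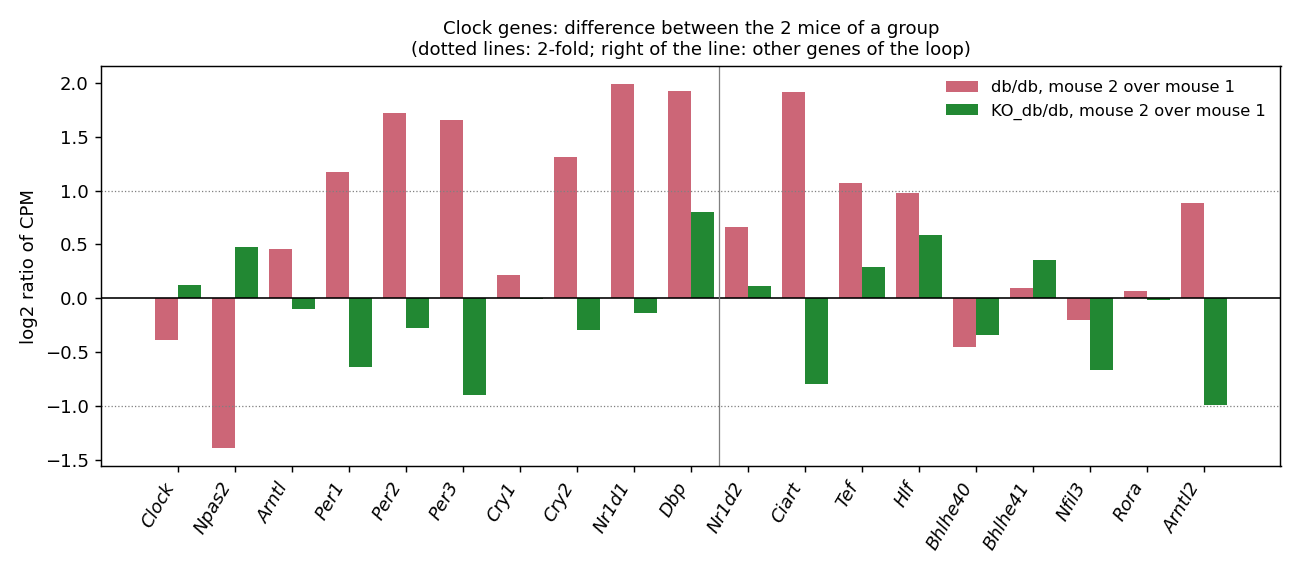
Log2 ratio of CPM of mouse 2 over mouse 1 in db/db and in KO_db/db, for the 10 clock genes and, right of the vertical line, other genes of the loop. Nr1d1, Dbp and Ciart differ by 3.78-fold to 3.97-fold between the db/db mice, and no member reaches the dotted 2-fold lines in KO_db/db.

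The comparison of KO_db/db with db/db asked what deleting Aldh1a3 goes with in diabetic β-cells. No clock gene passed the threshold, and the values ran from 2.01 for Nr1d1 to -0.31 for Cry1 on the log2 scale. The quasi-likelihood test of edgeR called 0 of 10 genes, beside 0.126% of 13486 genes called higher and 0.193% called lower. At an unadjusted p under 0.05 there were 3, Arntl, Npas2 and Nr1d1, each higher, beside 11.0% of all genes. DESeq2 called 2, Arntl and Npas2, beside 5.40% of genes called higher by that tool. Nr1d1 had a log2 fold change of 2.01 (standard error 0.62, adjusted p = 0.175, edgeR), Npas2 of 1.80 (standard error 0.54, adjusted p = 0.167, edgeR) and Arntl of 0.88 (standard error 0.22, adjusted p = 0.138, edgeR). Across the alternatives the adjusted p of Nr1d1 ran from 0.000731 to 0.416, and its value was 3.33 without db/db mouse 2 and 1.33 without db/db mouse 1.

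By library, 5 of the 10 genes, Arntl, Npas2, Per1, Cry2 and Nr1d1, were higher in both KO_db/db mice than in both db/db mice, and Cry1 was lower in both. Of all genes tested, 27.3% lay higher and 30.2% lower in this way. Per1 had a log2 fold change of 1.01 (standard error 0.43, adjusted p = 0.261, edgeR), Cry2 of 0.85 (standard error 0.44, adjusted p = 0.329, edgeR) and Dbp of 0.89 (standard error 0.63, adjusted p = 0.454, edgeR). Per2 was at 0.45, Per3 at -0.29 and Clock at -0.08, and each took the opposite sign with a library left out, Per2 at -0.17 and Clock at 0.12 without db/db mouse 1, and Per3 at 0.77 without db/db mouse 2 and 0.11 without KO_db/db mouse 2. The median over the 10 genes was 0.86, against -0.0234 over all genes. This comparison and the previous one share the db/db libraries, and the comparisons with lean mice share the db/+ libraries, so the values for a gene are not independent between them.

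Ratios inside a library do not depend on how libraries are scaled, and 6 were computed after the values had been seen, without a test. They describe libraries and not which gene is more abundant. The ratio of Nr1d1 to Dbp in CPM, both targets of the CLOCK and BMAL1 pair, was 0.904, 0.630 and 1.39 in db/+, 2.15 and 2.25 in db/db, and 6.92 and 3.60 in KO_db/db. The groups did not overlap, and the db/db mice, which differed by 3.97-fold in Nr1d1 and 3.80-fold in Dbp, had nearly the same ratio. The share of gene pairs whose ratios keep the groups apart was not computed. Both genes have the exon overlaps with Thra and Sphk2 given above. The ratio of Per1 to Cry1, each with an E-box in a promoter window, was 1.22, 1.05 and 1.78 in db/+, 1.86 and 3.61 in db/db, and 8.51 and 5.46 in KO_db/db. The ratio of Nr1d1 to Arntl, its own target, was 15.1 and 14.7 in KO_db/db, 3.25 and 9.43 in db/db, and 7.23, 3.84 and 3.17 in db/+, so here db/db and db/+ overlapped. That of Per2 to Arntl was 1.57 to 1.77 in KO_db/db, 1.24 to 3.00 in db/db and 0.505 to 1.39 in db/+, and that of Dbp to Arntl was 2.18 to 4.07, 1.52 to 4.20 and 2.28 to 8.00, so that KO_db/db lay within the range of db/db in each. That of Npas2 to Clock was 0.0614 to 0.0783 in KO_db/db, 0.0122 to 0.0245 in db/db and 0.00778 to 0.0432 in db/+, with KO_db/db apart from both.

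**Figure D5:**
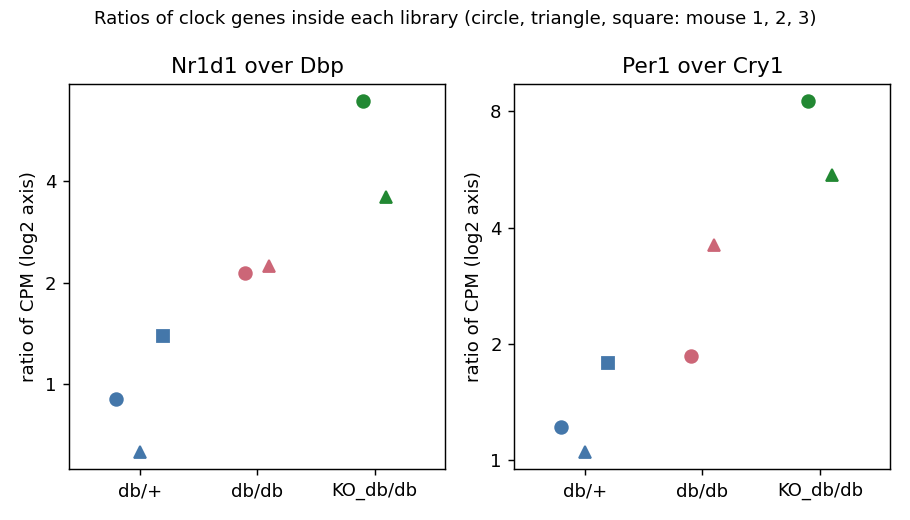
Ratio of the CPM of Nr1d1 to that of Dbp and of Per1 to that of Cry1 in each library on a log2 axis, by group. Nr1d1 over Dbp runs from 0.630 to 1.39 in db/+, 2.15 to 2.25 in db/db and 3.60 to 6.92 in KO_db/db.

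A list of 11 other genes of the loop held 10 that were tested. Rorb was at or under 0.122 CPM in every library. In db/db against db/+ 4 of the tested genes rose and 0 fell, with a list median of 0.48, beside 19.9% of all genes called higher and 18.0% lower. Bhlhe40, a repressor at E-boxes, rose by 2.12 on the log2 scale, Hlf by 1.43 and Rora, which encodes an activator at ROR elements, by 0.55 (edgeR, adjusted p = 0.00235, 0.0126 and 0.0378). Against db/+, 4 rose and 0 fell in KO_db/db, beside 20.5% of all genes called higher and 17.9% lower, with a median of 0.49. Among them Ciart rose by 2.17, Hlf by 1.01 and Rora by 0.60 (edgeR, adjusted p = 0.0175, 0.0164 and 0.0248). Hlf lost its call without db/db mouse 2, and Rora without any 1 of the db/db mice or of db/+ mice 1 and 2. For KO_db/db, Ciart lost it without KO_db/db mouse 1 or db/+ mouse 1, Hlf without KO_db/db mouse 2, and Rora without KO_db/db mouse 1 or 2 or db/+ mouse 1 or 2. Ciart had 13.9 and 8.00 CPM in KO_db/db, 2.43 and 9.18 CPM in db/db, and 1.80, 4.29 and 1.20 CPM in db/+. Bhlhe40 had 18.9 and 14.9 CPM in KO_db/db, 55.5 and 40.5 CPM in db/db, and 8.60, 15.4 and 8.49 CPM in db/+, so that db/db was highest and the other groups overlapped. Nr1d2, the paralog of Nr1d1, did not follow it. It had 92.9 and 100.2 CPM in KO_db/db, 63.3 and 100.2 CPM in db/db, and 116, 121 and 95.5 CPM in db/+, and was not called in any comparison. When KO_db/db was set against db/db, edgeR called 0 genes of this list, with 1 higher and 2 lower at an unadjusted p under 0.05 (11.0% and 9.85% of all genes), and DESeq2 called 2.

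Genes that act on clock proteins were read against the same shares of all genes, 19.9% called higher and 18.0% lower in db/db and 20.5% and 17.9% in KO_db/db. Of 13 genes of kinases, ubiquitin ligases and deubiquitinases, 5 rose and 3 fell in db/db against db/+ and 5 rose and 3 fell in KO_db/db against db/+, with medians of 0.19 and 0.11. Usp2, a deubiquitinase whose transcript is itself under clock control, rose by 2.14 in db/db and 2.15 in KO_db/db (edgeR, adjusted p = 0.00547 and 0.00404), and Csnk1e, the kinase CK1ε that phosphorylates PER, by 1.02 and 1.25 (edgeR, adjusted p = 0.00620 and 0.00206). Prkaa1, the AMPK subunit, fell by 0.75 and 1.07 (edgeR, adjusted p = 0.00629 and 0.00137).

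Of 12 cofactor genes, 4 rose and 2 fell in db/db against db/+, and 4 rose and 3 fell in KO_db/db against db/+, with medians of 0.14 and 0.05. Beside them stand 19.9% of all genes called higher and 18.0% lower in db/db, and 20.5% and 17.9% in KO_db/db. Crebbp, an acetyltransferase recruited by CLOCK and BMAL1, rose by 2.42 in each (edgeR, adjusted p = 0.000590 and 0.000693), and Ncor1, the corepressor that REV-ERBα uses, by 1.11 and 1.48 (edgeR, adjusted p = 0.00102 and 0.000605). Nampt, the clock-driven enzyme of NAD synthesis, fell by 1.03 and 0.55 (edgeR, adjusted p = 0.00142 and 0.00748). Of 7 genes known as clock outputs, beside the same shares, 4 rose in db/db and 2 in KO_db/db, and 0 fell, with medians of 0.60 and 0.36. Klf10, a Krüppel-like factor, rose by 1.90 and 0.73 (edgeR, adjusted p = 0.00300 and 0.0158), and Klf9, another, rose by 1.19 in KO_db/db (edgeR, adjusted p = 0.0106). In KO_db/db both lost their calls without mouse 1, at 0.48 for Klf10 and 0.82 for Klf9.

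Per1 also answers to glucocorticoids and to signals that induce immediate early genes, so these lists were set beside it and beside the same shares of all genes. Of 8 glucocorticoid-responsive genes, 6 rose and 0 fell in db/db against db/+, with a median of 1.34, and 3 of 7 tested rose and 0 fell in KO_db/db, with a median of 0.97. Sgk1 rose by 2.25 and 1.74 (edgeR, adjusted p = 0.0101 and 0.0273) and Errfi1 by 2.15 and 1.67 (edgeR, adjusted p = 0.00154 and 0.0187). Zbtb16 was at 0 in the 3 lean libraries and at 0.681 and 1.03 CPM in db/db, at least 7.68-fold higher than the mean floor of the lean libraries, and the median was the same with it at that bound. In KO_db/db Sgk1 lost its call without either KO_db/db mouse or without db/+ mouse 1, and Errfi1 without KO_db/db mouse 1, at 0.78, or db/+ mouse 2. Zbtb16 lost its call in db/db without db/db mouse 2.

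Of 15 immediate early genes 11 rose and 0 fell in db/db, with a median of 2.13, and 6 of 14 rose and 0 fell in KO_db/db, with a median of 1.12. Of all genes, 19.9% were called higher and 18.0% lower in db/db, and 20.5% and 17.9% in KO_db/db. Klf4 rose by 4.66 in db/db and 2.67 in KO_db/db (edgeR, adjusted p = 0.000766 and 0.0103) and Egr1 by 3.90 and 2.28 (edgeR, adjusted p = 0.000673 and 0.00197). Egr2 had 5.42 and 2.45 CPM in db/db and 3 counts in each lean library. Junb had means of 41.5 CPM in KO_db/db, 36.5 in db/db and 16.7 in db/+, the order of the means of Per1. Its db/db libraries, at 45.1 and 27.8 CPM, lay on both sides of those of KO_db/db, at 40.0 and 43.0. Klf4 did not share the order of Per1. It had 8.91 and 4.74 CPM in db/db and 1.06 and 2.29 CPM in KO_db/db, where Per1 was highest, and its call in KO_db/db was lost without KO_db/db mouse 2, at 2.00. Between the db/db mice Fos was at 0.464, Jun at 0.468 and Egr1 at 0.473 of mouse 1 in mouse 2, while Per1 was 2.25-fold higher there. In KO_db/db mouse 2, Fos was 5.31-fold, Jun 3.16-fold and Egr1 1.97-fold higher than in mouse 1, and Per1 was at 0.641. Of the glucocorticoid-responsive genes, Errfi1 and Ddit4 were 1.51-fold and 1.35-fold higher in db/db mouse 2, and Dusp1 and Fkbp5 were at 0.488 and 0.959. In KO_db/db mouse 2 Errfi1 and Ddit4 were at 0.371 and 0.415, and Dusp1 and Fkbp5 were 4.16-fold and 1.89-fold higher. The part of these inputs in Per1 was not tested. Of the genes in the last 5 lists, 0 were called by edgeR between KO_db/db and db/db. At an unadjusted p under 0.05, 6 immediate early genes were lower there and 0 higher, 1 glucocorticoid-responsive gene was lower, 1 output gene was higher and 2 lower, 2 cofactor genes were higher and 1 lower, and 1 gene of protein turnover was higher. Over all genes, 11.0% were higher and 9.85% lower at that threshold. DESeq2 called 7 genes over all 6 lists. The medians between KO_db/db and db/db were 0.14 for the loop list, -0.01 for turnover, 0.09 for cofactors, -0.33 for outputs, -0.39 for glucocorticoid-responsive and -1.43 for immediate early genes. The part of cell handling, fasting and the hour of collection in these values was not tested.

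The genes whose levels most resembled those of Arntl and Dbp over the 7 libraries were found by Pearson's r of log2 CPM among 7812 (Arntl) and 7811 (Dbp) genes with a mean of at least 10 CPM. For Arntl they were Grb14 (r = 0.976), Myt1 (0.975), Hmgb1 (0.968), Arap1 (0.963) and Ap3b1 (0.952), none of them in the lists above. For Dbp they were Anxa4 (0.981), Tef (0.965), Gm28661 (0.956), Eid2 (0.956) and Ppa2 (0.949), with the DBP relative Tef among the 5. The libraries fall into 3 groups and are few, so these values describe the pattern and carry no test. Tef had 63.7 and 77.7 CPM in KO_db/db, 36.8 and 77.2 CPM in db/db, and 76.3, 92.8 and 58.7 CPM in db/+, with db/db mouse 1 lowest, as for Dbp.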

How the data were processed

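The 7 β-cell libraries were assigned to KO_db/db, db/db and db/+ by the titles of the samples. The authors prepared paired-end poly-A libraries and deposited the estimated counts of kallisto 0.44.0 on GRCm38 (bcl2fastq 2.19 for base calls, per the submitters' processing notes), rounded to whole numbers and not normalized. The annotation release is not given in the sources used here, and 0 columns went unused. In R 4.3.3, edgeR 4.0.16 fitted each pair of groups on its own libraries, with filterByExpr (minimum count 10), TMM scaling, quasi-likelihood tests and Benjamini-Hochberg adjustment over all genes tested, at 0.05. The standard error is the fold change over the root of F. CPM used TMM over 7 libraries; log2 CPM for resemblance used a prior count of 2. DESeq2 1.42.0 was an alternative. The fits were tested on simulated data.

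Named genes were the 10 members, the genes of each list past the threshold (all for the loop list, otherwise up to 4 by size of change), and the 5 most like Arntl and Dbp. Nr1d2, the loop genes compared between mice, Nampt, Ddit4, Dusp1, Fkbp5, Fos, Jun, Junb and Thra were named after their values were seen. The members and lists were chosen with earlier results of these data known. Replicates differed by more than sampling noise. Coordinates and exon lengths are from GENCODE M21, promoters from RefSeq (GRCm38.p6). A gene of the loop list was counted but is not reported here.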

Additional observations from a re-analysis of the deposited data

How the results depend on the processing

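Alternatives were RLE scaling, DESeq2, no low-count filter, a joint fit of all 7 libraries, the mouse number as a replicate block, omission of the acinar genes, and leaving out each library. Of 110 values of the clock genes in db/db against db/+, 84 kept their direction and their side of the threshold, 13 lost the call, 6 gained it and 7 reversed. In KO_db/db against db/db the same counts were 89, 0, 7 and 4 of 100, and in KO_db/db against db/+ 102, 0, 6 and 2 of 110. The cause was not tested.

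Clock genes called in db/db against db/+ numbered 4, and 1 to 7 with a library left out. In KO_db/db against db/db 0 became 2 with DESeq2, 4 with no low-count filter and 0 to 1 with a library left out. In KO_db/db against db/+ 4 became 4 to 6. Genes of the other 6 lists called between KO_db/db and db/db went from 0 to 7 with DESeq2, 16 with no low-count filter, 1 in the joint fit and 0 to 2 with a library left out, and in KO_db/db against db/+ from 30 to 19 with the replicate block and 19 to 28 with a library left out. All genes called between KO_db/db and db/db numbered 43, against 1396 with DESeq2, 1570 with no low-count filter, 818 in the joint fit, 22 with the block and 0 to 225 with a library left out. In db/db against db/+ they numbered 5069, and 3331 and 3368 without db/+ mice 1 and 2, and in KO_db/db against db/+ 5081, and 3060 without KO_db/db mouse 1.

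Signs reversed as follows on the log2 scale. With the replicate block, in db/db against db/+, Arntl was at 0.28 and Npas2 at 0.62, and in KO_db/db against db/+ Dbp was at -0.016. With a library left out, in db/db against db/+, Arntl ran from -0.33 to 0.25, Npas2 from -1.22 to 0.71 and Nr1d1 from -0.68 to 1.32. In KO_db/db against db/db Clock ran from -0.26 to 0.12, Per2 from -0.17 to 1.56 and Per3 from -0.90 to 0.77, and in KO_db/db against db/+ Dbp ran from -0.22 to 0.58. The same-numbered mice share only a number: their deviations from the group means correlated at -0.102 to 0.0759. With the block, 3 clock genes were called in db/db against db/+, 0 between KO_db/db and db/db and 6 in KO_db/db against db/+. Scaling by plain library size in place of TMM shifted the log2 levels of a library by -0.20 to 0.29, depending on the library. The TMM factors were 1.19 and 1.22 in db/db and 0.868 to 0.880 in db/+. Plain scaling would therefore move every fold change of db/db against db/+ upward, and no comparison was refitted with it. Levels of low genes such as Npas2, with 16 to 214 counts, were limited by depth.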
